A study of Mus musculus with 44 samples.

Results

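The genes described here are 9 genes used to recognise microglia, the resident macrophages of the brain: P2ry12, Tmem119, Cx3cr1, Csf1r, Aif1, Trem2, Tyrobp, Itgam and Cst7. They were taken by symbol from both deposited count tables of a study of the mouse nucleus accumbens, and each matched 1 of the 55487 genes in those tables. All 9 had counts in every library and passed the filter on low counts in both tables. The study used viral vectors to deliver RXRa (retinoid X receptor alpha), which binds DNA in pairs with other nuclear receptors. One table holds polyA RNA of bulk accumbens tissue from male mice, with 4 libraries labelled HSV-GFP and 4 labelled HSV-RXRa-GFP. The other holds total RNA of D1 and D2 samples, which the series describes as sorted nuclei, from females and males labelled AAV9-CAG-DIO-EGFP or AAV9-CAG-DIO-EGFP-P2A-RXRa, in 35 libraries with a group.

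These vectors set what each control shares with its RXRa group. Every bulk library comes from tissue that received a herpes simplex virus vector, so the GFP group is no uninjected control. The insert of the AAV9 vector is inverted between recombination sites and is expressed only in cells with Cre recombinase, and the labels give neither the Cre line nor the age of the mice. D1 female samples number 5 with EGFP and 4 with RXRa, D1 male 5 and 4, D2 female 4 and 4, and D2 male 5 and 4. A further sorted library, whose title and vector label name different vectors, entered no comparison. The labels do not say that each library comes from a different animal or pool, so the p-values measure the spread between these libraries.

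Microglia depend on signalling through the receptor encoded by Csf1r for their survival, and at rest they survey the tissue with moving processes. In that state they express receptors such as P2ry12 and Cx3cr1. When they meet damage, infection or lipid debris, a programme that runs through Trem2 and its adaptor Tyrobp raises other genes, Cst7 among them, and lowers the genes of the resting state. Macrophages at the borders of the brain and monocytes that enter from blood share several of these genes, Csf1r, Aif1, Itgam and Tyrobp in particular.

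RefSeq promoter sequence on GRCm38.p6 was available for 6 of the 9 genes: Aif1, Cst7, Cx3cr1, Itgam, P2ry12 and Trem2. Sequence for Tmem119, Csf1r and Tyrobp was not used here. The 250 bases before the start of the transcript are shown for Cst7, which had the largest difference in bulk, for Aif1, which came next, and for P2ry12, the resting marker to which the others are set below. Capitals mark matches on either strand to AGGTCA, the half-site of nuclear receptors that pair with RXR, to GAGGAA, a core bound by PU.1 and related factors, and to GAAANNGAA, a core of interferon response elements.
Cst7: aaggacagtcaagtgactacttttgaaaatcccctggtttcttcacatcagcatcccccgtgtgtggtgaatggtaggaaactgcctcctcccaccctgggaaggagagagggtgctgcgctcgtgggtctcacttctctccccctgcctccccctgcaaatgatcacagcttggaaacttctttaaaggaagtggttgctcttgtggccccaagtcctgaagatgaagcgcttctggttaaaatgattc
Aif1: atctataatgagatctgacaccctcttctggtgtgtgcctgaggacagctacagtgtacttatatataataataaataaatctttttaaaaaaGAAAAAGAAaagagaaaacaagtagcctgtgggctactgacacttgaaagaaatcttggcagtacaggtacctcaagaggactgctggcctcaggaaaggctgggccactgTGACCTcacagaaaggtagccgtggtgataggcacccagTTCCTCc
P2ry12: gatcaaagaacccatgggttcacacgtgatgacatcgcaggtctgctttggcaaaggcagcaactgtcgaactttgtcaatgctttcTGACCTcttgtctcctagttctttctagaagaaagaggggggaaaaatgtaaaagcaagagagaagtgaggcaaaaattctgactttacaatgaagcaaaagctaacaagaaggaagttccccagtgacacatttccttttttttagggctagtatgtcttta
The Cst7 sequence lies at chr2:150570165-150570414 on the plus strand and holds none of the 3 motifs. The Aif1 sequence, chr17:35176053-35176302 on the minus strand, holds 1 match to each. The P2ry12 sequence, chr3:59262986-59263235 on the minus strand, holds 1 match to AGGTCA. Of the 6 members with a sequence, 3 hold AGGTCA (Aif1, P2ry12 and Trem2), against 14.0% of 32851 mouse promoters of the same length. GAGGAA is in 3 (Aif1, Itgam and Trem2), against 23.3%, and GAAANNGAA in 1 (Aif1), against 7.13%. A match of these letters is a description and shows no binding.

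On the mouse assembly GRCm38, 5 of the 9 genes lie clear of every other annotated gene. Tyrobp (ENSMUSG00000030579) spans chr7:30413760-30417585 and Cst7 (ENSMUSG00000068129) chr2:150570415-150578944. Trem2 (ENSMUSG00000023992) lies at chr17:48346401-48354147 and Aif1 (ENSMUSG00000024397) at chr17:35170991-35176068, while Tmem119 (ENSMUSG00000054675) lies at chr5:113793729-113800516. P2ry12 (ENSMUSG00000036353), at chr3:59216272-59262871, lies wholly inside Med12l on the opposite strand. Csf1r (ENSMUSG00000024621), at chr18:61100598-61132149, shares 2.97% of its length with Hmgxb3 and a microRNA gene. Cx3cr1 (ENSMUSG00000052336) is annotated over chr9:119901616-120069879 and shares 57.4% of that span with 9 other genes, 5 of them protein-coding. Itgam (ENSMUSG00000030786), at chr7:128062640-128118491, shares 99.9% of its span with the gene model Gm49368 on the same strand, so its counts are uncertain. Whether reads were counted by strand is not given in the sources used here, and the values of Med12l are therefore given beside those of P2ry12.

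Bulk libraries held 21567565 to 29167142 counts over genes and the 35 sorted libraries 12211655 to 27757463. The vector's RXRa sequence had 0 counts in the 4 bulk GFP libraries and 567 to 914 in the 4 bulk RXRa libraries. In the sorted table it had 0 to 17 counts under EGFP and 1216 to 13017 under RXRa. In bulk, 687 of 18579 tested genes passed an adjusted p of 0.05, 559 higher and 128 lower under RXRa. That number depended on single libraries: leaving out GFP 4 left 9, GFP 2 243, GFP 3 402, RXRa 2 333, RXRa 3 292 and RXRa 4 175. Not every such fit lowered it, since over all 8 fits that leave out a single library it ran from 9 to 1016.

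In bulk tissue none of the 9 genes passed the threshold for RXRa against GFP, where 3.7% of all tested genes did (edgeR, adjusted p under 0.05). Unadjusted p was under 0.05 for 2 of them, Cst7 and Aif1, and for 21.5% of all tested genes, so that this count is near the background. Of the other tools, DESeq2 called 1 of the 9, Cst7, and 1598 genes in all, while limma voom called none of the 9. Fitted differences ran from a log2 fold change of -0.20 for P2ry12 to 0.94 for Cst7, with a median of 0.20 over the 9 genes and -0.02 over all genes tested. In bulk tissue, fewer microglia and less RNA in each microglial cell cannot be told apart, for these genes and for every marker below.

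Cst7 encodes cystatin F, an inhibitor of lysosomal cysteine proteases that is low in resting microglia. It was at 11.9, 11.8, 6.22 and 7.24 CPM (counts per 1000000 counts of the scaled library) in GFP libraries 1 to 4 and at 13.5, 22.6, 15.8 and 19.7 CPM in RXRa libraries 1 to 4. Every RXRa library lay above every GFP library, the only such case among the 9 genes, and 6.64% of all tested genes were higher without overlap in the same way. The fitted log2 fold change was 0.94 (SE 0.24, n = 4 and 4), or 1.92-fold, and the edgeR adjusted p was 0.0662. That value rested on the choice of test and of genes. It was 0.00347 with DESeq2 (1598 genes called in all), 0.0237 with no filter on low counts and 0.044 without RXRa 1. Over the 8 fits that leave out 1 library it reached 0.201, without GFP 4, and the log2 fold change stayed between 0.79 and 1.08. The number of all tested genes that passed ran from 9 to 1016 over those fits. In the same bulk libraries 9 of 10 T and NK cell genes passed as higher, with a median log2 fold change of 1.82. Which cells gave the counts of Cst7 was not tested.

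Aif1 encodes IBA1, an actin-binding protein of macrophages and microglia whose antibody is the usual stain for these cells. Its GFP libraries were at 32.8, 27.4, 17.7 and 18.8 CPM and its RXRa libraries at 28.3, 39.4, 31.0 and 40.1 CPM. RXRa 1 and RXRa 3 lay below GFP 1, so the groups overlapped. The log2 fold change was 0.52 (SE 0.20) with an adjusted p of 0.185.

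**Figure D1:**
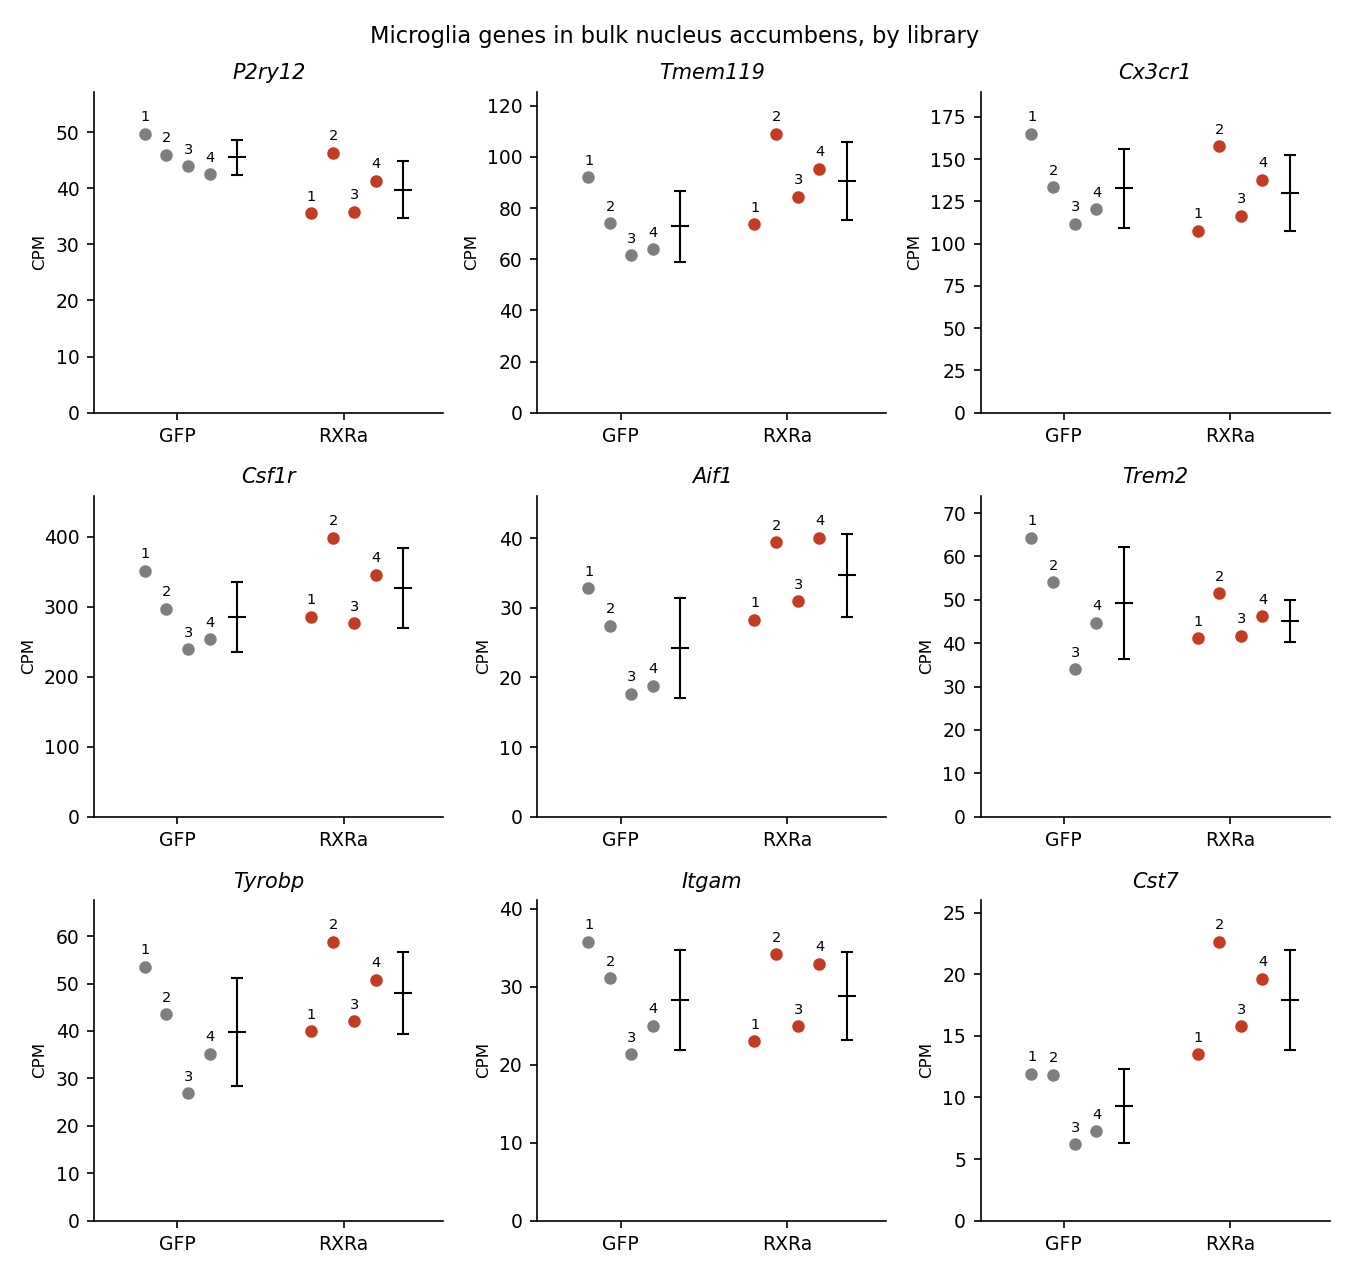
Level of each of the 9 microglia genes in bulk tissue, in CPM on a linear axis from 0, for 4 GFP (grey) and 4 RXRa (red) libraries numbered as in the labels. Black bars give the mean and SD of each group, and Cst7 is the gene whose 4 RXRa libraries, 13.5 to 22.6 CPM, all lie above its GFP libraries, 6.22 to 11.9 CPM.

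The 3 markers of the resting state had values on both sides of 0, and none passed. P2ry12, the ADP receptor that steers microglial processes to sites of injury, was at 49.7, 46.0, 44.0 and 42.5 CPM under GFP and at 35.5, 46.3, 35.8 and 41.3 CPM under RXRa. Of the RXRa libraries, RXRa 2 alone was within the range of the GFP libraries, and the log2 fold change was -0.20 (SE 0.09, adjusted p 0.267). Med12l, inside which P2ry12 lies, had a log2 fold change of -0.19 (SE 0.11, adjusted p 0.333). How many of the P2ry12 counts come from reads of Med12l was not tested.

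Tmem119, a membrane protein used as a marker of resident microglia, stood at 92.0, 74.1, 61.6 and 63.8 CPM under GFP and at 73.7, 109, 84.5 and 95.4 CPM under RXRa. The lowest RXRa library lay below GFP 1 and GFP 2. Its log2 fold change was 0.31 (SE 0.15, adjusted p 0.264). Cx3cr1, the receptor for the neuronal chemokine fractalkine, stood at 165, 133, 112 and 120 CPM under GFP and at 108, 158, 117 and 138 CPM under RXRa. Those 2 ranges overlapped almost fully, with a log2 fold change of -0.03 (SE 0.15, adjusted p 0.936), which turned positive with scaling by library totals and without GFP 1, RXRa 1 or RXRa 3.

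The genes shared by microglia and other macrophages also stayed under the threshold. Csf1r, the receptor for the growth factors CSF1 and IL-34, was at 351, 297, 239 and 254 CPM under GFP and at 285, 398, 276 and 346 CPM under RXRa. The groups overlapped, with a log2 fold change of 0.20 (SE 0.15, adjusted p 0.483). Itgam encodes CD11b, the alpha chain of complement receptor 3. Its libraries were at 35.8, 31.1, 21.4 and 25.03 CPM under GFP and at 23.03, 34.2, 24.9 and 33.0 CPM under RXRa. The log2 fold change of 0.02 (SE 0.18, adjusted p 0.958) turned negative without GFP 3, GFP 4, RXRa 2 or RXRa 4.

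Trem2 is a receptor for lipids and lipoproteins, and Tyrobp encodes DAP12, the adaptor through which it signals. Trem2 was at 64.3, 54.0, 33.9 and 44.8 CPM under GFP and at 41.1, 51.5, 41.7 and 46.2 CPM under RXRa. All 4 RXRa libraries lay within the GFP range, and the log2 fold change of -0.13 (SE 0.17, adjusted p 0.721) turned positive without GFP 1. Tyrobp was at 53.5, 43.5, 26.9 and 35.2 CPM under GFP and at 39.9, 58.8, 42.1 and 50.8 CPM under RXRa. Its lowest RXRa library lay below GFP 1 and GFP 2, with a log2 fold change of 0.27 (SE 0.20, adjusted p 0.481).

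**Figure D2:**
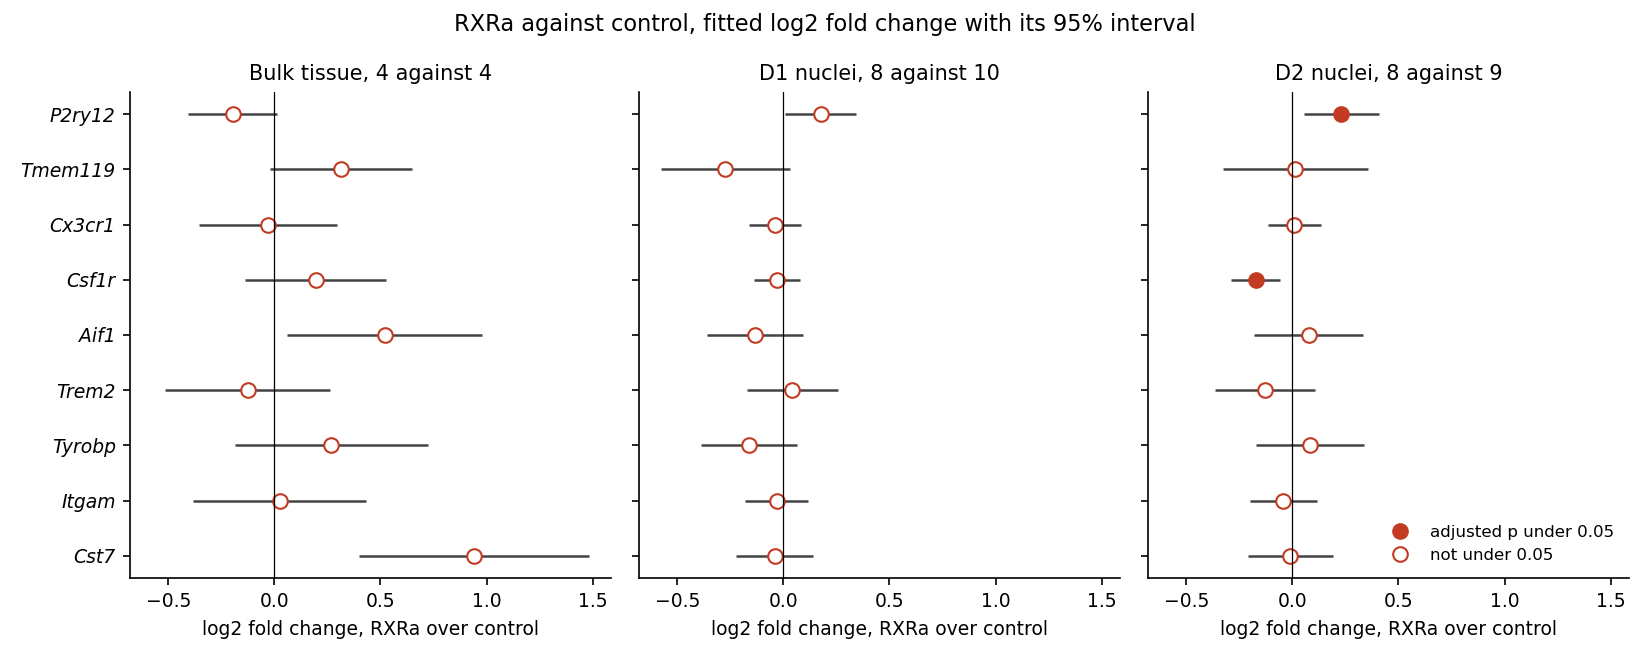
Fitted log2 fold change of the 9 genes, RXRa against its control, in bulk tissue, D1 nuclei and D2 nuclei, with bars for the 95% confidence interval of the edgeR fit. A filled point marks an adjusted p under 0.05. Cst7 has the highest bulk value, 0.94, and the filled points are P2ry12 and Csf1r in D2 nuclei.

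The spread within each bulk group was shared by the 9 genes. GFP 1 was the highest GFP library for 9 of 9 genes, and GFP 1 and GFP 2 were the upper pair for all 9. RXRa 2 was the highest RXRa library for 8 of the 9, all but Aif1, and RXRa 2 and RXRa 4 were the upper pair for all 9. The summed CPM of the 9 genes was 856, 718, 562 and 611 in the GFP libraries and 648, 918, 669 and 810 in the RXRa libraries. Both upper pairs were the same in 13.3% of the 18579 tested genes. They were the same in 8 of 14 other genes of resting microglia, 15 of 20 other genes of activated microglia, 15 of 20 partners and regulators, 7 of 8 cell division genes, 4 of 6 blood monocyte genes and 6 of 10 T and NK cell genes, and in 0 of 10 genes of striatal projection neurons and 0 of 10 interferon-response genes. What set the order of the libraries was not tested.

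Across the 8 bulk libraries Pearson's r between pairs of the 9 genes ran from -0.13 for P2ry12 with Cst7 to 0.96, as a description of libraries that share their order. Outside the 9 genes, the 5 whose CPM followed the mean pattern of the members most closely, of 15873 genes with a mean of at least 1 CPM, were Gng5 (r = 0.988), Ormdl2 (0.987), Mcm7 (0.985), C1qa (0.982) and Rplp0 (0.982). C1qa encodes a chain of the complement component C1q, which microglia make in the brain, and it averaged 218 CPM under GFP and 258 CPM under RXRa.

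Because the 9 genes shared this order, each was also expressed as its CPM divided by that of P2ry12 in the same library, a description chosen after the values had been seen and carrying no test. The ratio lay higher in every RXRa library than in every GFP library for 5 of 8 genes: Tmem119, Csf1r, Aif1, Tyrobp and Cst7. Of the 18578 tested genes other than P2ry12, 15.5% did the same. The ratio of Cst7 was 0.240, 0.257, 0.141 and 0.170 under GFP and 0.380, 0.489, 0.440 and 0.475 under RXRa. That of Aif1 was 0.660, 0.596, 0.402 and 0.443 under GFP and 0.797, 0.851, 0.865 and 0.970 under RXRa. In both genes RXRa 1 was the lowest RXRa library and still stood above the highest GFP library.

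In proportion the gap was narrower for Tmem119, Csf1r and Tyrobp. The ratio of Tmem119 was 1.85, 1.61, 1.40 and 1.503 under GFP and 2.07, 2.35, 2.36 and 2.31 under RXRa. Csf1r stood at 7.07, 6.46, 5.43 and 5.97 times P2ry12 under GFP and at 8.04, 8.60, 7.72 and 8.37 times under RXRa. For Tyrobp the values were 1.08, 0.946, 0.612 and 0.830 under GFP and 1.12, 1.27, 1.18 and 1.23 under RXRa. The ratio overlapped between the groups for Cx3cr1, 2.54 to 3.32 under GFP and 3.03 to 3.40 under RXRa, for Trem2, 0.772 to 1.29 and 1.11 to 1.16, and for Itgam, 0.486 to 0.720 and 0.648 to 0.798. A lower P2ry12 count, or fewer counts shared with Med12l, raises every one of these ratios, and the level of P2ry12 was itself not shown to differ between the groups.

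**Figure D3:**
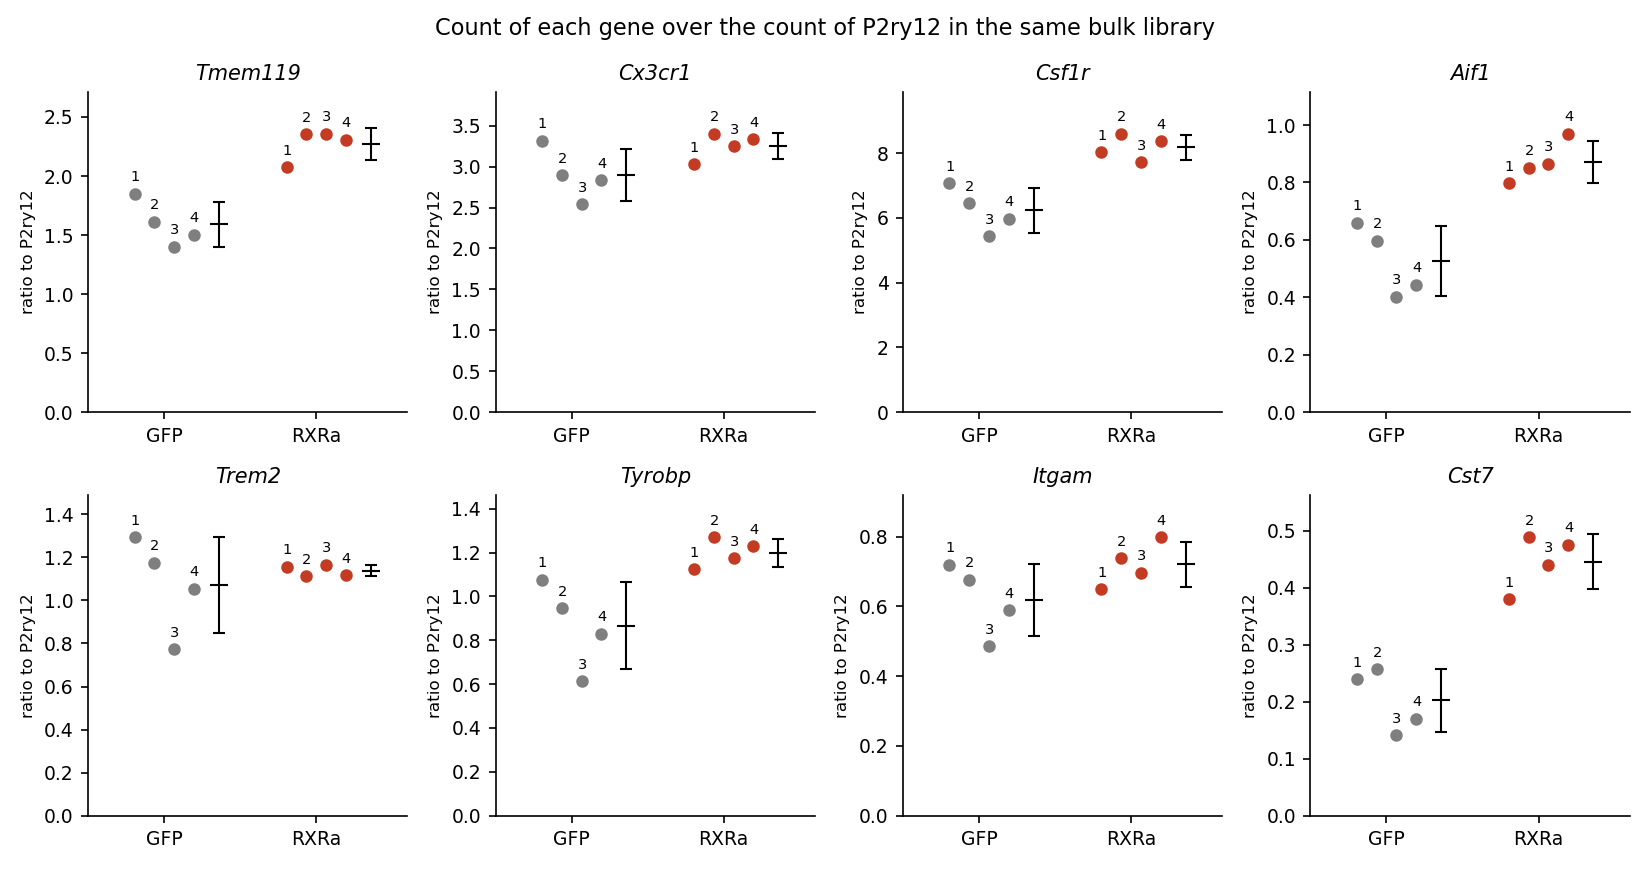
CPM of 8 microglia genes divided by the CPM of P2ry12 in the same bulk library, on a linear axis, for 4 GFP (grey) and 4 RXRa (red) libraries, with the mean and SD of each group. The groups are apart for Tmem119, Csf1r, Aif1, Tyrobp and Cst7 and overlap for Cx3cr1, Trem2 and Itgam.

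Per kilobase of exon, Tyrobp was the most abundant of the 9 genes in the GFP group, at 59.7 ± 17.1 CPM per kb (SD, n = 4), and Csf1r came next at 49.4 ± 8.75. Their libraries overlapped, and those of Csf1r did not overlap with the next gene. Tmem119 at 31.5 ± 5.97 and Cx3cr1 at 29.4 ± 5.17 overlapped with each other and stood clear of P2ry12 at 17.9 ± 1.23 CPM per kb. P2ry12 overlapped with Aif1 (15.8 ± 4.70), Aif1 with Trem2 (9.96 ± 2.62), Trem2 with Cst7 (9.44 ± 3.05) and Cst7 with Itgam (5.64 ± 1.27). By this measure the resting markers Tmem119 and Cx3cr1, with Tyrobp and Csf1r, held the upper places in control tissue, and Cst7 a low one.

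Ligands, partners and regulators of the 9 genes were counted next, and none of these 20 genes passed the threshold in bulk (edgeR). Unadjusted p was under 0.05 for 7 of them, DESeq2 called 2 and limma voom 0. The fitted value was above 0 for 17 of the 20, with a median log2 fold change of 0.47. As background for this list and those below, 8638 of all 18579 tested genes had values above 0 and 9941 below. Unadjusted p was under 0.05 for 21.5% of all tested genes, and DESeq2 called 1598 genes. Spi1 and Irf8, transcription factors that specify microglia and macrophages, had values of 0.60 (adjusted p 0.151) and 0.75 (adjusted p 0.130). Among the ligands, Csf1 was at 0.43 (adjusted p 0.151), whereas Il34, the other ligand of the Csf1r receptor, was at -0.08 and Cx3cl1, which encodes fractalkine, at -0.13. Icam1, a ligand of complement receptor 3, was at 0.87 (adjusted p 0.0838), and Itgb2, the beta chain that pairs with the Itgam product, at 0.60 (adjusted p 0.247). Syk, the kinase downstream of the Tyrobp adaptor, was at 0.62 (adjusted p 0.182). Ctsc, which encodes the cathepsin C protease that cystatin F inhibits, was at 0.71 (adjusted p 0.162). Other genes of this list lay near 0 or below. Ctsl, another cathepsin gene, was at -0.06 (adjusted p 0.734), Adam10 at 0.02, Clu at 0.09 and the regulator Cebpa at 0.17 (adjusted p 0.562).

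By edgeR with every library, other microglial genes gave no call. None of 14 further genes of the resting state passed it (3 with unadjusted p under 0.05, and 0 called by DESeq2 and by voom), with a median log2 fold change of 0.05. The smallest p among them was that of Slc2a5, a fructose transporter found in microglia, at -0.36 (adjusted p 0.0888). None of 20 further genes of the activated state passed either, with a median of 0.18. Unadjusted p was under 0.05 for 6 of those, and DESeq2 called 4 and voom 0. With edgeR 2 passed with no filter on low counts, without GFP 1 and without RXRa 1, and 1 activated and 1 resting gene passed without GFP 3. Over the fits that leave out 1 library, 9 to 1016 of all tested genes passed. Cd52, a small surface glycoprotein of immune cells, had the smallest p of the activated genes, at 0.94 (adjusted p 0.0552). Border macrophage genes gave 0 of 7 tested (2 with unadjusted p under 0.05, none by the other tools), and the smallest p was that of Ms4a7, at 1.05 (adjusted p 0.191).

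Markers of blood-derived immune cells and of the interferon response differed in the same libraries. Of 6 blood monocyte genes, 3 rose under RXRa: Ly6c2 by a log2 fold change of 2.02 (adjusted p 0.0142), Ms4a4c by 1.69 (adjusted p 0.0132) and Plac8 by 1.57 (adjusted p 0.0156). Ly6c2 has a near-identical neighbour, Ly6c1, and its count is uncertain. The 6 monocyte genes summed to 44.2 to 106 CPM in the GFP libraries and to 164 to 302 CPM in the RXRa libraries, and none was at 0. Of 10 T and NK cell genes, 9 rose, among them Cd3d by 2.22, Cd3e by 2.05, Cd3g by 1.94 and Ncr1 by 1.86 (adjusted p 0.0238 to 0.0326). The 10 genes summed to 58.5 to 73.8 CPM under GFP and 76.0 to 152 CPM under RXRa. Cd4, the gene that did not rise, was at -0.22 (adjusted p 0.394). It averaged 46.1 CPM under GFP, most of that sum, and 39.6 CPM under RXRa, so the sums understate the rise of the other 9. All 10 interferon-response genes rose, with a median log2 fold change of 1.19, among them Ifi44 by 1.55 and Ifit1 by 1.45, and their sums were 1049 to 1501 CPM and 2171 to 3075 CPM. Of 8 neutrophil genes 2 could be tested and 0 passed (1 with unadjusted p under 0.05, S100a9 at -1.55, adjusted p 0.118, and 0 by the other tools). Their sums were 1.22 to 4.32 CPM and 0.851 to 2.30 CPM, with Ly6g listed at 0 in both groups and Camp in the RXRa group.

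With every library DESeq2 called 6 monocyte, 9 T and NK cell and 10 interferon-response genes, and voom called 4, 7 and 10. The edgeR calls depended on GFP 4. Without it, 0 monocyte, 0 T and NK cell and 0 interferon-response genes passed, in a fit that called 9 of all tested genes. Without GFP 2, GFP 3, RXRa 2 or RXRa 4 the T and NK cell count was 3, 5, 5 and 2. Over the fits that leave out 1 library the monocyte count ran from 0 to 4. The part that monocytes, lymphocytes or the interferon response have in the values of Cst7, Aif1 and the other macrophage genes was not tested.

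Lists for other cell types of the tissue gave few calls. All 8 cell division genes had values above 0, with a median log2 fold change of 0.55, but 0 passed (2 with unadjusted p under 0.05, none by the other tools). Their sums were 59.5 to 162 CPM under GFP and 100.3 to 196 CPM under RXRa. Of 8 endothelial genes 3 rose, Kdr, Ly6c1 and Cdh5 by 0.71, 0.67 and 0.59. The count of Ly6c1 is uncertain, as is that of its near-identical neighbour Ly6c2. Of 8 astrocyte genes Aqp4 rose by 0.57 and S100b fell by 0.27 (adjusted p 0.0133). None of 8 oligodendrocyte genes passed, though all 8 had values below 0 (4 with unadjusted p under 0.05, 2 called by DESeq2 and 0 by voom). Of 10 projection neuron genes 1 passed, Bcl11b at -0.31 (adjusted p 0.0359), and all 10 had values below 0. Without GFP 4, 0 genes of these lists passed. Bcl11b also lost its call without GFP 1, GFP 2, GFP 3, RXRa 3 or RXRa 4. The endothelial count was 1 without GFP 2, RXRa 2, RXRa 3 or RXRa 4, and the astrocyte count 1 without GFP 2, GFP 3, RXRa 2 or RXRa 3 and 0 without RXRa 4. The part of these shifts in the microglial values was not tested.

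**Figure D4:**
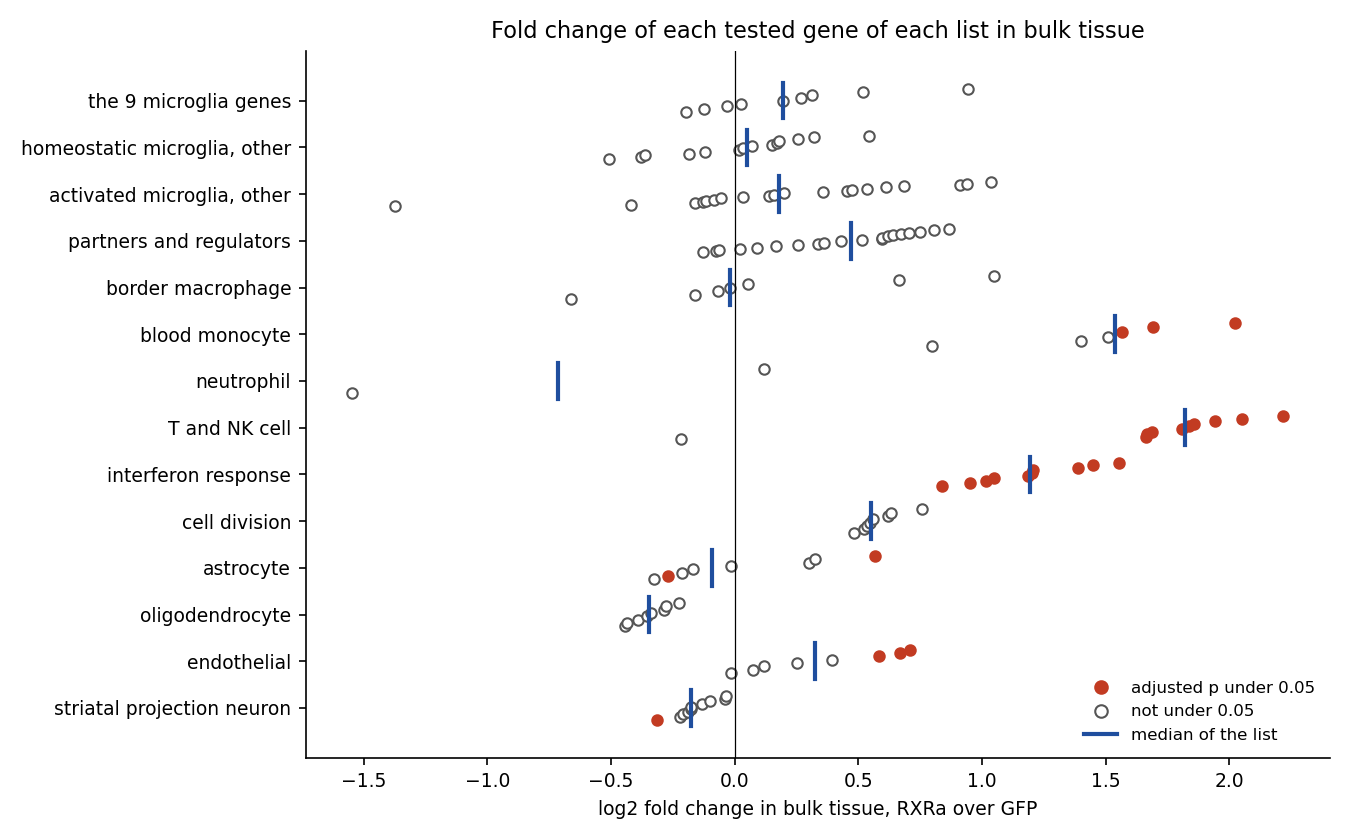
Log2 fold change of each tested gene in bulk tissue, RXRa against GFP, for the 9 microglia genes, their partners and regulators and 12 other lists. Each dot is a gene, red where the adjusted p is under 0.05, and the blue bar is the median of the list. The 9 microglia genes have no red dot and a median of 0.20, and the interferon-response genes are all red with a median of 1.19.

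In the sorted nuclei the 9 genes serve as a check of purity, since they are microglial and D1 and D2 samples are meant to hold neuronal nuclei. Their raw counts ran from 23 for Aif1 in 1 library to 2711 for Cx3cr1 in another. Cx3cr1 had at least 804 counts in every library, P2ry12 at least 194 and Itgam at least 191. Tmem119 reached a low of 24 counts, or 1.79 CPM with a 95% Wilson interval of 1.201 to 2.66 CPM that covers counting error only. These libraries were made from total RNA of nuclei, and the level of each gene was read against a background of 1576 silent genes, protein-coding, on autosomes and 5 kb or longer, with 0 counts in all 8 bulk libraries. Across these genes the log of the sorted counts followed the log of gene body length (r = 0.753) and hardly that of exon length (r = 0.0624). Their median density was 0.380 to 0.565 CPM per kb of gene body over the 35 libraries.

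Against that density, per kb of gene body, 8 of the 9 genes had medians near background. For P2ry12, Itgam and Cx3cr1 that length is shared with other genes over 100%, 99.9% and 57.4%, so their ratios are uncertain. The median over the 35 libraries of the ratio to the silent genes was 0.820 for P2ry12, 0.891 for Tmem119 and 0.968 for Cx3cr1, and these lay above 1 in 9, 8 and 13 of the 35 libraries. It was 1.14 for Csf1r, 1.25 for Aif1, 1.204 for Trem2 and 1.14 for Cst7, each above 1 in 29 to 32 libraries, and 0.679 for Itgam, above 1 in 0. From the 5th to the 95th percentile the silent genes ran from 0.352 to 1.56, and 8 of the 9 microglia genes had medians inside that range. Tyrobp was the exception, at 2.12 (0.886 to 3.16), and in the median library 99.0% of the silent genes lay below it. At 3.83 kb it is shorter than any silent gene used, and against silent genes of 2 to 10 kb its ratio was 2.13. A ratio of that size was not particular to Tyrobp. The 8 neutrophil genes, which summed to at most 4.32 CPM in bulk, ran from 1.28 to 2.54 with a median of 1.67. The 10 T and NK cell genes ran from 0.817 to 2.33 with a median of 1.32. The 10 projection neuron genes ran from 2.43 for Bcl11b to 66.8 for Penk, which encodes the opioid precursor proenkephalin, with a median of 5.84. By the receptors that name the populations, Drd1 was at 12.64 to 44.9 in 18 D1 and 2.83 to 17.8 in 17 D2 libraries, and Drd2 at 1.378 to 3.50 in D1 and 14.4 to 68.2 in D2 libraries.

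**Figure D5:**
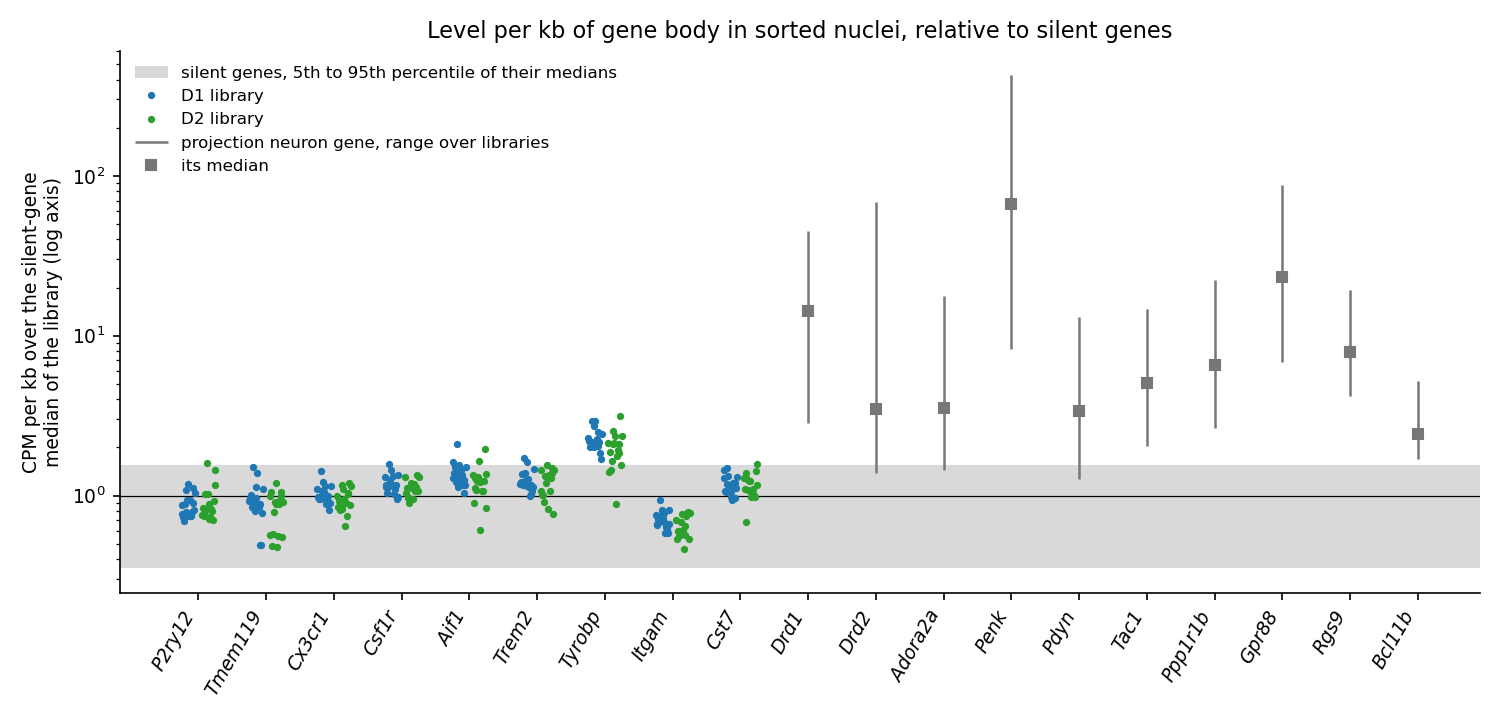
CPM per kb of gene body divided by the median of the silent genes, on a log axis, for the 9 microglia genes in 35 sorted libraries (D1 blue, D2 green). The grey band spans the 5th to 95th percentile of the silent genes, 0.352 to 1.56, and the projection neuron genes are drawn with their range and median, 5.84. All microglia genes except Tyrobp have their medians in the band, though P2ry12, Itgam and Cx3cr1 share most of their gene body with other genes. Outside those genes Cx3cr1 was at 2.12.

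Over the 9 genes the log2 of the median sorted CPM followed the log2 of gene body length with r = 0.977, that of exon length with r = 0.596 and that of the bulk CPM with r = 0.462, as a description over 9 genes that share the same libraries. Per kb of exon, the median ratio of the 9 genes was 2.31 and not 1.14, and that of Cx3cr1 was 11.03, of P2ry12 4.59 and of Trem2 0.581. The silent genes themselves spread widely by exon length. In the median library 95.6% of them lay below Cx3cr1, 86.9% below P2ry12 and 27.4% below Trem2, and the range of 0.352 to 1.56 does not apply. Counting only the gene body outside other genes, Cx3cr1 was at 2.12, above 1 in 35 of 35 libraries. In the median library 96.4% of the silent genes lay below it. Tyrobp was at 1.98 by that length, while P2ry12 and Itgam have too little unshared length for a value. Medians per kb of gene body over other glial lists were 1.26 for the 14 other resting genes, 1.29 for the 20 other activated genes, 1.13 for 8 astrocyte genes and 1.39 for 8 oligodendrocyte genes, against 1.14 for the 9 genes, with single genes up to 5.32 in the activated list and 2.41 in the oligodendrocyte list. The source of the microglial counts in these libraries was not tested.

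In D1 nuclei none of the 9 genes passed for RXRa against EGFP, and none of all 43902 tested genes did (0%, with 3518 at an unadjusted p under 0.05 by edgeR and 0 called by DESeq2 and by voom). Fitted values ran from -0.27 for Tmem119 to 0.18 for P2ry12, which had the only unadjusted p under 0.05 among the 9 (adjusted p 0.600), against 8.01% of all genes. Med12l was at 0.16 (SE 0.08, adjusted p 0.600) in the same libraries. P2ry12 was at 17.0 to 22.4 CPM (median 18.4) in 10 EGFP libraries and at 17.9 to 24.2 CPM (median 21.8) in 8 RXRa libraries. The 2 ranges overlapped over most of their length.

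In D2 nuclei 2 of the 9 genes passed, P2ry12 higher and Csf1r lower under RXRa, where 22.1% of all tested genes passed, so that the count is near the background. P2ry12 was at 17.9, 20.6, 18.2 and 19.9 CPM in the female EGFP libraries and at 23.3, 20.2, 28.6 and 20.9 CPM in the female RXRa libraries. In males it was at 17.8, 22.8, 18.0, 21.1 and 18.1 CPM under EGFP and at 17.0, 18.8, 26.2 and 27.1 CPM under RXRa. In females 3 of 4 and in males 2 of 4 RXRa libraries stood above every EGFP library of that sex, and the groups overlapped in both. It rose by a log2 fold change of 0.23 (SE 0.09, adjusted p 0.0495, edgeR). Med12l, around it, had a value of 0.20 (SE 0.08, adjusted p 0.0665) in the same libraries.

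Csf1r in D2 nuclei was at 20.9, 17.5, 18.6 and 17.2 CPM in the female EGFP libraries and at 15.2, 15.2, 13.9 and 16.6 CPM in the female RXRa libraries. The female groups did not overlap, as in 3.75% of all tested genes that were lower in every RXRa than in every EGFP library. In males it was at 18.9, 16.6, 18.7, 20.4 and 16.2 CPM under EGFP and at 18.5, 18.5, 16.1 and 16.4 CPM under RXRa, and these groups did overlap. It fell by 0.17 on the log2 scale (SE 0.06, adjusted p 0.0309, edgeR). The difference between the sexes in this effect was -0.23, female minus male, with an unadjusted p of 0.0540 and an adjusted p of 1 (edgeR). The other 7 genes had values from -0.13 for Trem2 to 0.08 for Tyrobp.

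Both D2 calls depended on the fit and on single libraries. P2ry12 passed in 3 of the 8 other fits with all libraries and in 9 of the 35 fits that leave out 1 library, and Csf1r in 4 of 8 and in 29 of 35. Csf1r lost its call without D2 female EGFP 1, D2 female RXRa 4, D2 male EGFP 1 or 4, or D2 male RXRa 3 or 5. Scaling by library totals put P2ry12 at 0.05 (adjusted p 0.532) and Csf1r at -0.33 (adjusted p 0.0117). With the density of the silent genes of each library as a covariate, P2ry12 was at 0.13 and Csf1r at -0.17, both with an adjusted p of 0.915, and 0 of all genes passed (2061 at an unadjusted p under 0.05). The mean silent density was 0.532 and 0.529 CPM per kb in the D2 female and male EGFP groups and 0.463 and 0.458 in the RXRa groups, and of 1554 silent genes tested 307 were lower and 16 higher in D2, or 20.8%. Over all genes 0 passed without D2 female RXRa 4 and 1633 without D2 male RXRa 5. The number was 5794 without D2 female EGFP 5, 6102 without D2 male RXRa 3, 6420 without D2 female EGFP 1 and 14766 without D2 male RXRa 1, against 9683 with every library.

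Between the cell types and the sexes no difference passed for the 9 genes. For D2 against D1 nuclei under EGFP 0 of 9 passed, where 0.121% of all genes did. Unadjusted p was under 0.05 for 10.5% of all genes and for 3 of the 9, Tyrobp at -0.31 (adjusted p 0.319), Aif1 at -0.25 (adjusted p 0.440) and Cx3cr1 at -0.14 (adjusted p 0.406), and DESeq2 and voom called 0. Tyrobp was at 3.86 to 5.74 CPM in 10 D1 and at 1.86 to 4.83 CPM in 9 D2 EGFP libraries, which overlapped. For the difference of the RXRa effect between D2 and D1, 0 of 9 and 0% of all genes passed, with 0 of the 9 at an unadjusted p under 0.05 and adjusted p from 0.602 to 0.990 (edgeR). Csf1r differed by -0.14 (adjusted p 0.602) and P2ry12 by 0.06 (adjusted p 0.898), so the D2 values of both genes were not shown to differ from the D1 values. The female against male difference of the RXRa effect gave 0 of 9 and 0% of all genes in D1 and in D2, with 0 of the 9 at an unadjusted p under 0.05 and 0 of the 9 called by DESeq2 or voom.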

How the data were processed

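Gene counts were measured in bulk nucleus accumbens (8 libraries) and in sorted D1 and D2 nuclei (35 libraries with a group, 1 without). The counts were deposited by the authors as 2 tables of whole, unnormalized reads per Ensembl gene. Per the submitters' processing notes the tools include FastQC, Trimmomatic, HISAT2, Picard and featureCounts of the Subread package, with the build GRCm38. Versions, strand setting and counted feature are not given in the sources used here. Reads were pairs of 150 bases, and of 55487 gene identifiers 55394 matched GENCODE M21.

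The 9 genes, the lists and the tests were chosen with earlier results of these data known. Each table was fitted whole with edgeR 4.0.16 (quasi-likelihood, TMM, filterByExpr by group, R 4.3.3), with Benjamini-Hochberg adjustment and a threshold of 0.05. The sorted fit used 8 groups of population, sex and vector. CPM were computed here from TMM-scaled library sizes. Alternatives were DESeq2 1.42.0, limma voom 3.58.1, other scalings and filters, a replicate block, silent-gene density as a covariate, and leaving out each library. The edgeR steps were tested on simulated data.

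Levels in sorted nuclei were set against silent genes per kb of gene body. Exon length had been the planned measure and became the alternative, because counts of silent genes followed gene body length. Gene body outside other genes, silent genes of 2 to 10 kb, the ratio to P2ry12 and the alternatives for the other lists were added after the data had been seen. Named genes were all 9 members, any partner or regulator and, from each other list, up to 4 of the largest changes in each direction past the threshold in bulk, or else the gene with the smallest p. Cd4 was named besides, as the T and NK cell gene that did not rise. The library with conflicting labels entered no comparison. Replicates of a group differed by more than sampling noise (chi-square per degree of freedom 6.67 to 32.1 in bulk and 1.79 to 63.6 in sorted nuclei), so none was counted as a duplicate. Deviations of same-numbered libraries of the compared groups had correlations of -0.56 to 0.53 in bulk, which does not settle whether the libraries were paired.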

Additional observations from a re-analysis of the deposited data

Results flagged for a closer look

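Of 90 sets of 4 or 5 libraries in which the level of 1 of the 9 genes was checked for a library far from the others, 1 held such a library, where chance gives about 1 in 20. Tmem119 was at 4.56 CPM in D1 male EGFP 2, against 3.07 to 3.37 CPM in the other 4 libraries of that group. That library stood apart over many genes, with a chi-square per degree of freedom of 55.1 to 63.6 against the other 4. Among themselves those differed by 1.79 to 7.83. With 12211655 counts it was also the shallowest sorted library.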

How the results depend on the processing

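In bulk tissue 0 of the 9 genes passed in every fit with all libraries except those with no filter on low counts and with DESeq2, where 1 passed (Cst7), and leaving out 1 library gave 0 to 1. Over all genes DESeq2 called 1598 and the replicate block 0 (3303 at an unadjusted p under 0.05), and leaving out 1 library gave 9 to 1016. In D2 nuclei 2 members passed in the main fit, where 22.1% of all tested genes did. With the alternatives 1 member passed with RLE scaling, library totals, no filter, DESeq2 and voom. It was 0 with the replicate block and 0 with the covariate of silent-gene density, and leaving out 1 library gave 0 to 2. The share of all genes called by each alternative with all libraries is not given here, except that the covariate fit called 0. For D1, D2 against D1 and the 3 differences of effects, 0 members passed in every alternative run. Per kb of exon the median level against silent genes was 2.31, and it stayed at 1.14 per kb of gene body with any 1 library left out. The sign changes below are all in values that did not pass. For RXRa against EGFP in D2, P2ry12 and Csf1r passed in the main fit and kept their signs. Scaling by library totals, which moved the median of all genes in D2 from -0.04 to -0.20, gave 0.05 for P2ry12 (adjusted p 0.532, edgeR) and -0.33 for Csf1r (adjusted p 0.0117) in D2, 0.0057 for Cx3cr1 in bulk, -0.031 for Trem2 in D1, and in D2 -0.14 for Tmem119, -0.15 for Cx3cr1, -0.077 for Aif1 and -0.074 for Tyrobp. The density covariate gave -0.11 for Tmem119 and -0.043 for Cx3cr1 in D2. Cst7 in D2 was at 0.016 with RLE, 0.015 with DESeq2, 0.0056 with voom, 0.00067 with the replicate block and 0.0047 with the density covariate. Csf1r in D2 against D1 was at 0.00075 with DESeq2. Leaving out 1 library gave ranges across 0 for Cx3cr1 (-0.14 to 0.092), Trem2 (-0.27 to 0.028) and Itgam (-0.090 to 0.16) in bulk. In D2 these were Tmem119 (-0.10 to 0.098), Cx3cr1 (-0.032 to 0.032), Aif1 (-0.031 to 0.13), Tyrobp (-0.019 to 0.15) and Cst7 (-0.092 to 0.050), and in D2 against D1 Csf1r (-0.043 to 0.0073), Trem2 (-0.0039 to 0.11) and Cst7 (-0.096 to 0.045). The cause of these changes was not tested.

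Correlations of same-numbered pairs ran from -0.56 to 0.53 in bulk and -0.43 to 0.64 in sorted nuclei. With so few libraries in each group they cannot settle whether replicate numbers pair the libraries. With the replicate block Cst7 in bulk had an adjusted p of 0.101, and in D2 P2ry12 had 0.0592 and Csf1r 0.0508 (edgeR). Sorted counts down to 23 in a library limit the precision of Aif1, Tmem119 and Tyrobp.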

Other observations

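The sorted library with conflicting labels held 15630501 counts over genes and 2941 counts of the vector's RXRa sequence, against 0 to 17 in the EGFP and 1216 to 13017 in the RXRa libraries. Its levels against the silent genes were 0.794 for P2ry12, 0.952 for Tmem119, 1.05 for Cx3cr1, 1.31 for Csf1r, 1.42 for Aif1, 1.29 for Trem2, 2.55 for Tyrobp, 0.683 for Itgam and 1.16 for Cst7. Each lay within the range of the 35 libraries with a group.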
